A study of Mus musculus with 4 samples.

Results

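The corticosteroid synthesis genes of the mouse adrenal gland were taken as a list of 10: the cholesterol transporter Star, the enzymes Cyp11a1, Hsd3b1, Cyp21a1, Cyp11b1, Cyp11b2 and Hsd11b1, and the electron carriers Fdx1, Fdxr and Por. A gene was measured where at least 1 probe set of the array carried its name and no other. That held for 8 of the 10 genes, read by 13 of the 34945 probe sets with a single gene. Fdxr and Por carried no named probe set and were not analysed here. The tested glands came from male V1aKO mice, which lack the V1a vasopressin receptor, and were set against glands of male wild-type (WT) mice. The mice were 2 months old, and each genotype had 2 samples with 1 array each. Whether the 2 samples of a genotype were separate animals is not said in the labels, and the p-values then cover the spread between these 4 arrays alone, which may be technical. The labels give no strain and no account of how the receptor was removed.

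In the adrenal cortex, Star moves cholesterol to the inner mitochondrial membrane, where Cyp11a1 cuts its side chain to give pregnenolone. Hsd3b1 turns pregnenolone into progesterone in the smooth endoplasmic reticulum, Cyp21a1 hydroxylates progesterone there, and the product returns to mitochondria, where Cyp11b1 makes corticosterone in the zona fasciculata and Cyp11b2 makes aldosterone in the zona glomerulosa. The mitochondrial cytochromes of this route take electrons from NADPH through Fdxr and Fdx1, the microsomal ones through Por. Hsd11b1 regenerates active corticosterone from its inert keto form and is best known from liver and fat. Mouse adrenals lack the enzyme Cyp17a1 in adult life and so make corticosterone rather than cortisol. V1a is a Gq-coupled receptor, and the comparison asks whether transcripts of this route differ in glands without it.

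Start-site windows are printed for Fdx1 and Hsd3b1, where both V1aKO arrays read lower than both WT arrays on the gene's brightest probe set. For Cyp11a1, the first enzyme of the route, only the second start is printed. The windows come from RefSeq, build GRCm38.p6, and run from 250 bases before a transcript start to 50 bases after it. Windows were found for 6 of the 10 genes: Cyp11a1 with 2 starts, Hsd3b1, Fdx1, Fdxr, Por and Hsd11b1. Capitals mark TCAAGG, or CCTTGA where it lies on the opposite strand, the first letters of the extended site that Nr5a1, the master regulator of steroidogenic genes, recognises. Fdx1 lies on the minus strand at chr9:51963553-51963852, Hsd3b1 on the minus strand at chr3:98859745-98860044, and the second start of Cyp11a1 on the plus strand at chr9:58014702-58015001.
Fdx1: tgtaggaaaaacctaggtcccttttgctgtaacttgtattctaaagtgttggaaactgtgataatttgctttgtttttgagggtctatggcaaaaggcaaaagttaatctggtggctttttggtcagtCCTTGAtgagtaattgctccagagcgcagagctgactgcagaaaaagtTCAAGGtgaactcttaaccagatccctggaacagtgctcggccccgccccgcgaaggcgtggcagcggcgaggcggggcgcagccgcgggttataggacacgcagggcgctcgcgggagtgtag
Hsd3b1: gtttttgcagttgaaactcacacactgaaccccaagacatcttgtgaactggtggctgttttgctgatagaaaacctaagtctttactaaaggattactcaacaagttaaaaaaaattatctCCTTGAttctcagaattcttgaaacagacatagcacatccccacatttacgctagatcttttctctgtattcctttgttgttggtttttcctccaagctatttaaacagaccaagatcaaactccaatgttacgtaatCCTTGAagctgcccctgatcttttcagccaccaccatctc
Cyp11a1: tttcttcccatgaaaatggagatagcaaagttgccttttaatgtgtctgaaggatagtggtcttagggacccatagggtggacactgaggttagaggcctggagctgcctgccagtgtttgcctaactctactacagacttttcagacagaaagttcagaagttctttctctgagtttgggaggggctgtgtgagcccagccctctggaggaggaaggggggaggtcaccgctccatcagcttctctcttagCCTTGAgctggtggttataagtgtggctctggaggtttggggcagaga

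TCAAGG was searched on both strands and chosen after the windows had been read. It occurred in 3 of the 7 windows of the listed genes, the 3 printed. The window at the first start of Cyp11a1, not printed, held no copy, so the printed windows are those with a copy. TCAAGG occurred in 14.4% of all 32851 windows. In Fdx1 it began 74 and 122 bases before the start, and in Hsd3b1 128 bases before it. A second copy in Hsd3b1 began 10 bases after the start, and the copy in Cyp11a1 2 bases after it. CAAGGTCA, a longer form of the site that shares letters with TCAAGG, was in 0 of the 7 windows and in 1.56% of all windows, and TATAAA was in 0 of the 7 and in 13.6% of all.

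The values are log2 expression levels per probe set, made with GCRMA, and ran from 2.30 to 14.9 over the 4 arrays. A level depends on how well the probes of a set bind as well as on the transcript, so levels are described by their place on the scale and are not compared between genes. Tests were run on the 17228 of 45037 probe sets that read 4 or more on 2 of the arrays or on more of them, among them 12 of the 13 probe sets here and at least 1 for each of the 8 genes. All 12 carry the plain suffix of the array design. WT array 1 stood apart from the others, with correlations over tested probe sets of 0.919 to 0.924, against 0.974 to 0.986 among the other 3 arrays. Differences that turn sign or move by more than 1.5 times without it are given both ways below. Cortex markers outside the list were read at 4 or more on every array in 5 of 5 named genes, Nr5a1, Mrap, Scarb1, Nr0b1 and Mc2r. Of these, Nr0b1 only just reached that level, at 4.05 to 4.22. Avpr1a, the receptor gene, read 2.53 and 2.60 in V1aKO glands and 2.53 and 2.53 in WT glands on 1 probe set and 2.31 to 2.33 on the other, too dim to check the genotype labels.

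No transcript of the route passed the test. None of the 12 tested probe sets reached an adjusted p of 0.05 in limma, and the smallest adjusted p was 0.794. Over the whole array 0 of 17228 passed, which is 0%. At an unadjusted p under 0.05 there were 0 of 12, against 885 of all tested probe sets, or 5.14%. Among the alternatives run on the 8 genes, 2 single values passed that unadjusted level, Fdx1 with no filter on low probe sets and Hsd11b1 without WT array 2, and both are given with their genes. The stricter unadjusted rule, p under 0.01 and a change of 2-fold or more, was met by 0 of 12, against 0.836% of all. Per gene, by the brightest probe set of each, 4 genes had a lower mean in V1aKO glands and 4 a higher one, with a median difference of -0.058 log2 units, against -0.049 over all 10110 genes tested. Without WT array 1 these medians were -0.0054 and 0.043. The widest 95% intervals reached from a ratio of 0.406 for Hsd11b1 to one of 1.94 for Cyp11b2, so 2-fold changes lay outside the interval of every tested probe set except 2, the second of Cyp21a1 and the one of Hsd11b1, whose intervals allow a fall of that size. With 2 arrays against 2, an exact permutation test of a single value cannot go below p = 0.333 (two-sided).

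**Figure D1:**
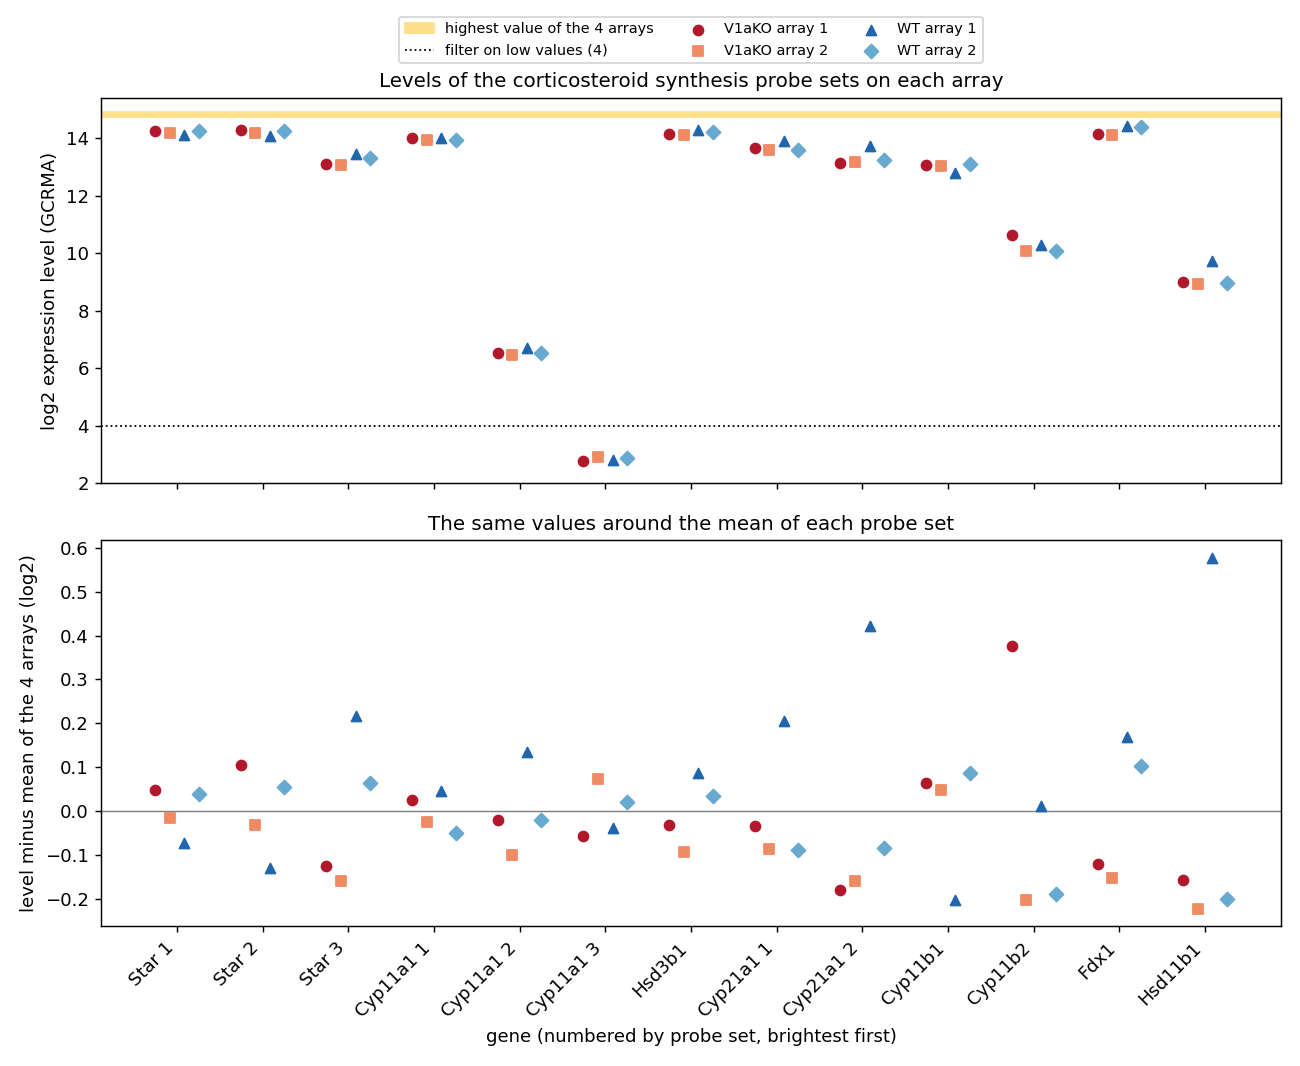
Upper panel, log2 level on each array (V1aKO arrays left, WT arrays right) for the 13 probe sets in pathway order, with the highest values of the 4 arrays as a band at 14.7 to 14.9 and the filter at 4 as a dotted line. Lower panel, the same values minus the mean of the probe set over the 4 arrays, where the largest departures are those of WT array 1 on Hsd11b1 and on the second probe set of Cyp21a1 and of V1aKO array 1 on Cyp11b2.

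Star, which controls the entry of cholesterol into the route, was read by 3 probe sets, and they did not go together. The brightest averaged 14.20 ± 0.044 in V1aKO glands and 14.17 ± 0.079 in WT glands (SD, n = 2 each), with 14.24 and 14.17 on the V1aKO arrays against 14.12 and 14.23 on the WT arrays. The next read 14.29 and 14.16 on the V1aKO arrays, against 14.06 and 14.24 on the WT arrays. On both, the genotypes overlapped and WT array 1 was the lowest of the 4. The third read 13.10 and 13.07 in V1aKO glands, against 13.44 and 13.29 in WT glands, and here both V1aKO arrays lay below both WT arrays. Its difference was -0.28 (SE 0.16, 95% interval -0.75 to 0.19, limma adjusted p = 0.794), while the other probe sets of Star differed by 0.034 (SE 0.16) and 0.074 (SE 0.18). The mean of the 3 differed by -0.058, so the sign for Star depended on the probe set. Leaving out WT array 1 gave -0.022 for the brightest, -0.018 for the next and -0.20 for the remaining one, all below 0.

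Cyp11a1, the side-chain cleavage enzyme, had the narrowest range over the 4 arrays among the 12 tested probe sets. Its bright probe set read 13.99 and 13.94 on the V1aKO arrays, against 14.01 and 13.91 on the WT arrays, and the 4 values lay within 0.096 log2 units. The genotypes overlapped, and the difference was 0.0027 (SE 0.16, 95% interval -0.45 to 0.46). A second probe set of the gene sat far lower on the scale, at 6.54 and 6.46 in V1aKO glands and 6.70 and 6.54 in WT glands, a difference of -0.12 (SE 0.17). Without WT array 1 the bright probe set differed by 0.051 and this one by -0.040. The remaining probe set read 2.80 to 2.93 on all arrays, close to the lowest value, and was not tested.

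Hsd3b1, which makes progesterone, was lower on both V1aKO arrays, by a small amount. It read 14.15 and 14.09 in V1aKO glands, against 14.27 and 14.22 in WT glands, and the genotypes did not overlap. The difference was -0.12 (SE 0.16, limma adjusted p = 0.835), a ratio of 0.918. The mouse has several near-identical Hsd3b genes, and a reading under 1 name may hold transcripts of another. On this array Hsd3b2 read 2.30 throughout. Hsd3b6, another gene of the family, had no named probe set, so its part in the reading could not be seen.

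Cyp21a1, which hydroxylates progesterone to deoxycorticosterone, leaned the same way on both of its probe sets, and both were highest on WT array 1. The brighter read 13.64 and 13.59 in V1aKO glands and 13.88 and 13.58 in WT glands, a difference of -0.12 (SE 0.19). The other read 13.13 and 13.15 in V1aKO glands and 13.73 and 13.22 in WT glands, a difference of -0.34 (SE 0.24, limma adjusted p = 0.794). The genotypes overlapped on the first and not on the second. Without WT array 1 the first differed by 0.029, which turned its sign, and the second by -0.084.

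Cyp11b1, the last enzyme of corticosterone synthesis, overlapped between genotypes. It read 13.06 and 13.04 in V1aKO glands, against 12.79 and 13.08 in WT glands, so 3 arrays lay together and WT array 1 below them. The difference was 0.11 (SE 0.19, 95% interval -0.42 to 0.65), and without WT array 1 it was -0.032. Cyp11b2, the aldosterone synthase, is the direct neighbour of Cyp11b1 on chromosome 15 and resembles it closely in sequence, so their probes may share signal. It read 10.65 and 10.07 in V1aKO glands and 10.28 and 10.08 in WT glands. The V1aKO arrays held both the highest and the lowest value, and the difference was 0.18 (SE 0.27, 95% interval -0.60 to 0.95). Without V1aKO array 1 it was -0.11, without V1aKO array 2 it was 0.47, and without WT array 1 it was 0.28.

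Fdx1, the ferredoxin that hands electrons to the mitochondrial enzymes of the route, had the smallest p of the list. It read 14.14 and 14.11 in V1aKO glands, against 14.43 and 14.36 in WT glands. Both V1aKO arrays lay below both WT arrays, and the arrays of a genotype differed by 0.031 (V1aKO) and 0.067 (WT). The difference was -0.27 (SE 0.16, 95% interval -0.72 to 0.17, unadjusted p = 0.161, limma adjusted p = 0.794), a ratio of 0.828. Leaving out each array in turn kept it between -0.31 and -0.24. With a variance that depends on the level its unadjusted p was 0.0549 and its adjusted p 0.817. With no filter on low probe sets, which changes the variance that limma shares among them, the unadjusted p was 0.00993 and the adjusted p 0.958. In bulk RNA, fewer cortical cells and less of a transcript per cell cannot be told apart.

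Hsd11b1, which recycles corticosterone, had the largest difference of the list and the least agreement between arrays of a genotype. It read 9.01 and 8.94 in V1aKO glands, against 9.74 and 8.96 in WT glands. The difference of -0.38 (SE 0.32, limma adjusted p = 0.794) rested on WT array 1, and without that array it was 0.011. Without WT array 2 it was -0.76, with an unadjusted p of 0.0106 and a limma adjusted p of 0.0827.

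**Figure D2:**
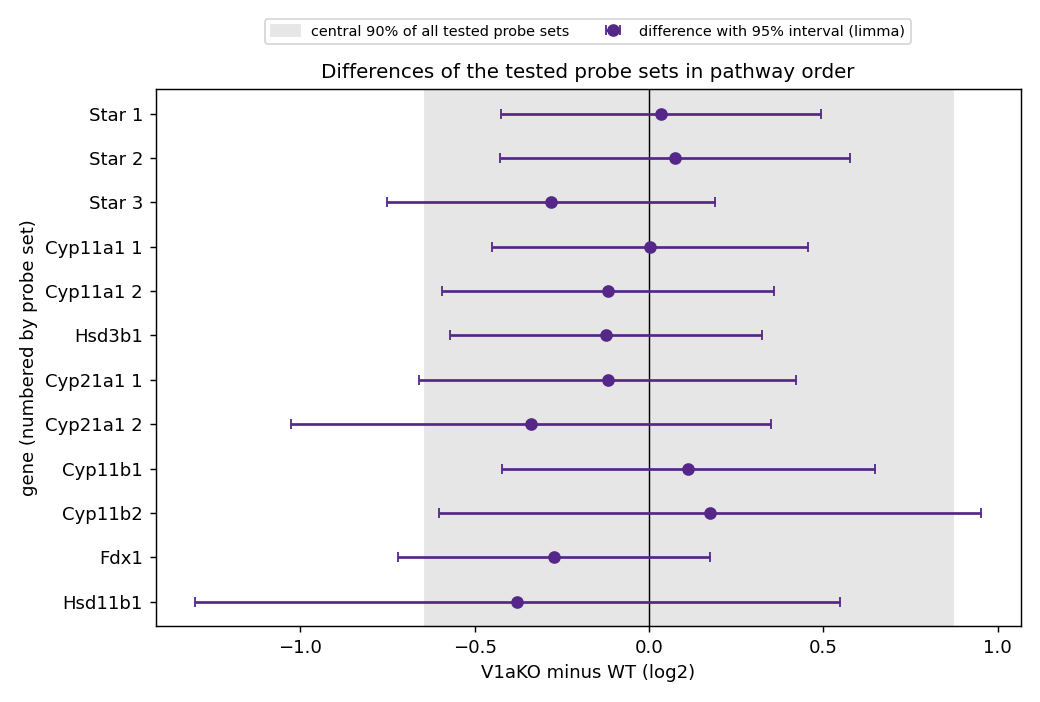
V1aKO minus WT in log2 units for the 12 tested probe sets in pathway order, with limma's 95% intervals, over a grey band that holds the central 90% of all tested probe sets (-0.64 to 0.87). Every interval crosses 0, and the widest, of Hsd11b1, runs from -1.30 to 0.55.

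Most of these probe sets lay near the upper end of the scale. The highest values of single arrays were 14.8 and 14.9 in V1aKO glands and 14.8 and 14.7 in WT glands. Within 1 log2 unit of the array's highest value there were 48 and 37 probe sets on the V1aKO arrays and 73 and 69 on the WT arrays, and 5, 5, 6 and 5 of them belonged to the route. Fdx1 lay 0.331 to 0.809 below the top of its array, the brightest probe set of Star 0.498 to 0.744, Hsd3b1 0.489 to 0.825 and Cyp11a1 0.750 to 0.977. Ranked by mean level among all 45037 probe sets, Fdx1 was at rank 14, the bright probe sets of Star at 17 and 18, Hsd3b1 at 19, Cyp11a1 at 29, those of Cyp21a1 at 72 and 140, the third of Star at 153 and Cyp11b1 at 208. Cyp11b2, at rank 1642, and Hsd11b1, at rank 3155, lay well below this range.

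Spread narrowed towards the top of the scale for the array as a whole. The median residual SD within a genotype was 0.285 for the 5331 tested probe sets with a mean level under 6, 0.145 for the 183 between 13 and 14 and 0.121 for the 24 at 14 or more. The 95th percentile of the absolute difference was 1.08, 0.536 and 0.384 in the same ranges. At least a 2-fold difference was read for 1 of the 183 and 0 of the 24. The 12 probe sets of the route had a median residual SD of 0.101, from 0.037 for Fdx1 to 0.389 for Hsd11b1, against 0.263 over all tested probe sets. Their median absolute difference was 0.12, against 0.24 over all. Whether the narrow spread came from saturation or from steady transcripts was not tested, since scanner intensities were not analysed here.

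**Figure D3:**
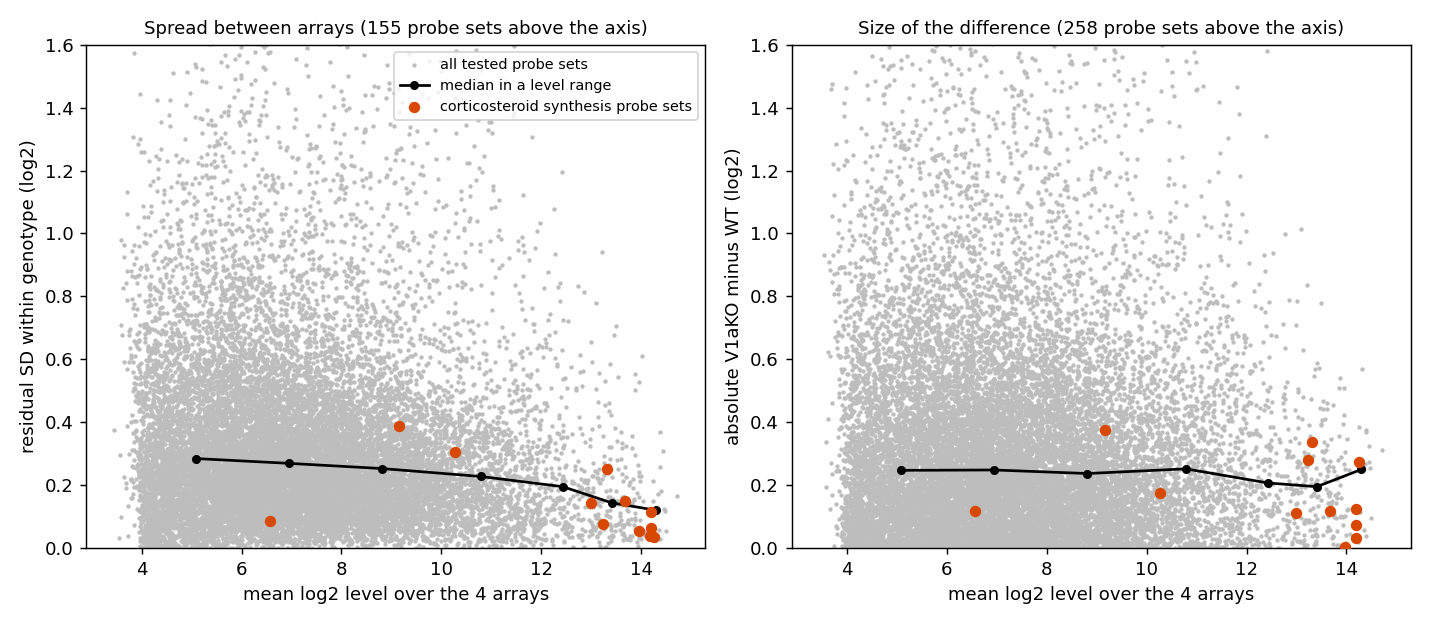
Residual SD within a genotype (left) and absolute difference between V1aKO and WT (right), both in log2 units, against the mean level of each tested probe set, with medians in level ranges as a black line and the 12 probe sets of the route in orange. The median SD falls to 0.121 at levels of 14 or more, and 9 of the 12 probe sets lie at levels of about 13 or more.

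The genotypes did not overlap on 4 of the 12 probe sets, and all 4 were lower in V1aKO glands: the third of Star, Hsd3b1, the second of Cyp21a1 and Fdx1. That is 33.3%, where 20.0% of all tested probe sets were lower on both V1aKO arrays. At levels from 13 to 14 that share was 35.5% of all probe sets, and at 14 or more 41.7%. Each of these ranges held 4 probe sets of the route. The third of Star and the second of Cyp21a1 lay in the lower range, Hsd3b1 and Fdx1 in the upper. The remaining probe sets of the route lay below 13, and the genotypes overlapped on all of them. With so few in each range, an excess over these shares cannot be told. On both V1aKO arrays higher, the count was 0 of 12, against 17.4% of all. WT array 1 was the highest of the 4 arrays on 8 of the 12 probe sets and the lowest on 3. It lay outside the range of the other 3 arrays on 11 of the 12, and did so on 73.9% of all tested probe sets. Over all 11738 tested plain probe sets, WT array 1 lay a median of 0.16 above the mean of the other 3 arrays.

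Markers of other cell types also differed between arrays of a genotype. Of 8 chromaffin cell markers 7 were named, and all 7 were higher on V1aKO array 1 than on V1aKO array 2 and on WT array 1 than on WT array 2, the same order as Cyp11b2. That order was not particular to Cyp11b2: it was read for 6 of the 8 genes of the route and for 32.8% of all genes tested. The chromaffin markers' log2 levels summed to 82.1 and 76.0 on the V1aKO arrays and to 83.6 and 77.5 on the WT arrays. Pnmt, which makes adrenaline, read 11.88 and 10.40 in V1aKO glands and 12.50 and 11.32 in WT glands. Of 6 named markers of the zona glomerulosa, where aldosterone is made, 3 had that order between the V1aKO arrays and 2 between the WT arrays, with sums of 58.2 and 58.6 in V1aKO glands and 58.8 and 56.8 in WT glands. The part of these markers in the reading of Cyp11b2 was not tested.

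WT array 1, where Hsd11b1 was highest, was also the 1 array with clear readings of liver transcripts. The 7 hepatocyte markers summed to 18.9 and 18.8 on the V1aKO arrays and to 44.0 and 18.0 on the WT arrays, and 5 of the 7 reached 4 log2 units on WT array 1 and 0 of 7 on each other array. Alb, the serum albumin gene, read 2.43 and 2.43 in V1aKO glands and 8.86 and 2.42 in WT glands. The 8 named adipocyte markers summed to 41.7 and 55.0 on the V1aKO arrays and to 62.8 and 54.7 on the WT arrays, with Lep at 2.30 on every array. Ucp1 and Cidea, both of brown fat, made up the peak on WT array 1, with Ucp1 at 2.80 and 5.91 in V1aKO glands and 10.05 and 7.24 in WT glands and Cidea at 3.37 and 6.06 in V1aKO glands and 9.78 and 6.78 in WT glands. The other 6 adipocyte markers summed to 35.6 and 43.0 in V1aKO glands and to 43.0 and 40.7 in WT glands. Of these, 3 were highest on V1aKO array 2, Adipoq, Fabp4 and Cidec, and 2 on WT array 1, Slc2a4 and Pparg. Slc2a4 read 5.61 and 6.31 in V1aKO glands and 7.56 and 7.48 in WT glands. The 7 kidney markers summed to 23.4 and 24.7 in V1aKO glands and to 27.2 and 24.6 in WT glands. Of the 7, 5 were below 4 on every array, Umod and Slc34a1 among them. The remaining ones, Aqp1 and Fxyd2, were both highest on WT array 1. Aqp1 read 7.03 and 8.08 in V1aKO glands and 8.75 and 8.03 in WT glands. Fxyd2 read 4.10 and 4.04 in V1aKO glands and 5.93 and 4.09 in WT glands. The part of these tissues in the reading of Hsd11b1 was not tested.

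**Figure D4:**
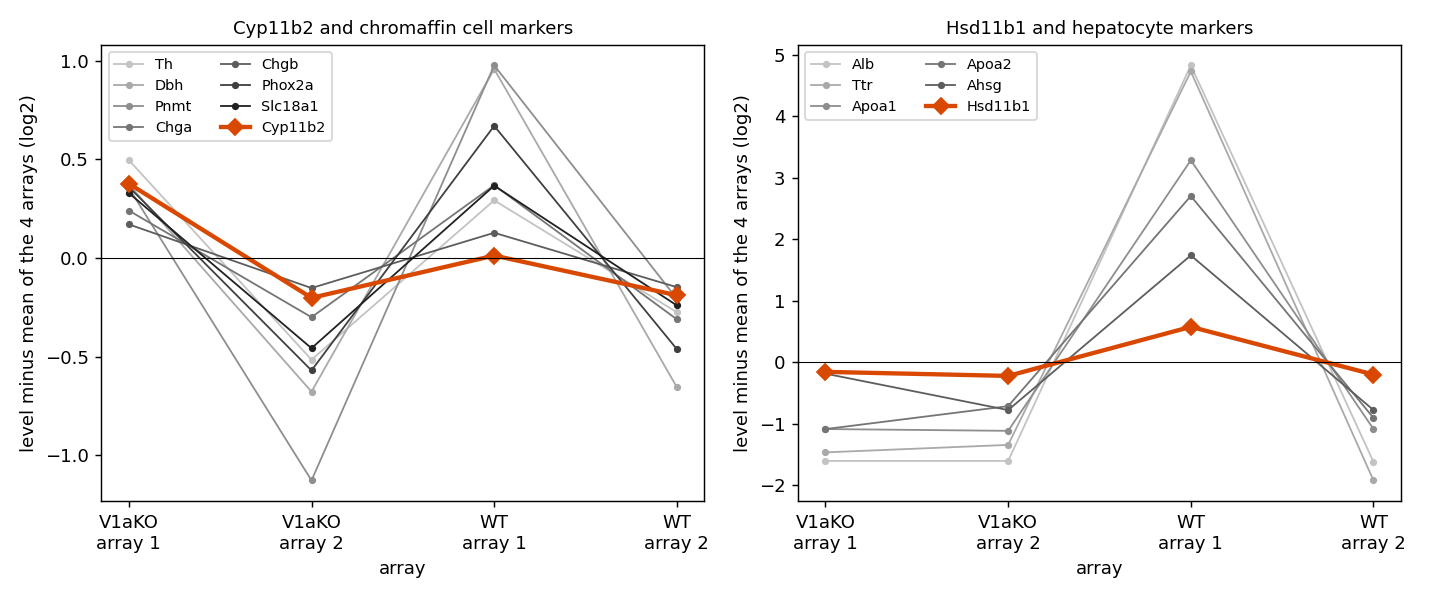
Level minus the mean of the 4 arrays, in log2 units, on each array (V1aKO left, WT right) for Cyp11b2 with 7 chromaffin cell markers and for Hsd11b1 with 5 hepatocyte markers, on separate scales. Cyp11b2 and all 7 chromaffin markers are higher on array 1 than on array 2 within each genotype, and Hsd11b1 and the 5 hepatocyte markers are highest on WT array 1.

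The genes around the route were described from fixed lists, none of which had a member past the adjusted threshold in limma. Of all 10110 genes tested, 5.06% had an unadjusted p under 0.05. Among other steroid enzymes, 10 of 16 were named and 3 tested, 2 with a higher and 1 with a lower mean in V1aKO glands and 0 at an unadjusted p under 0.05. These were Hsd17b4 of peroxisomes at 1.36 (SE 0.81), Hsd17b11 at -0.19 and Hsd17b12 at 0.023. Without WT array 1 they differed by 0.27 (Hsd17b4), 0.10 (Hsd17b11) and -0.22 (Hsd17b12), and the plain probe set of Hsd17b4 by 0.15, against -0.032 with all arrays. Cyp17a1 read 2.32 and 2.31 in V1aKO glands and 2.32 and 2.46 in WT glands, at the floor of the scale. Akr1c18, a marker of the X-zone of the inner cortex, read 2.30 and 2.30 in V1aKO glands and 3.11 and 2.30 in WT glands.

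Of the electron and NADPH partners of the enzymes, 0 of 10 tested genes had an unadjusted p under 0.05. A lower mean in V1aKO glands was read for 9 of them, with a median of -0.15, where 56.0% of all genes tested had a lower mean. With WT array 1 left out it was 8 of 10, with a median of -0.098, against 42.9% of all. Cyb5r3, which reduces the Cyb5 cytochromes, differed by -0.34 (SE 0.16), Cyb5a, one of them, by -0.31 (SE 0.16) and Pgrmc2, a heme-binding membrane protein, by -0.35 (SE 0.23), or -0.12 without WT array 1. Cyb5a read 10.93 and 10.83 in V1aKO glands, against 11.17 and 11.21 in WT glands, without overlap. Nnt, the mitochondrial transhydrogenase that supplies NADPH to the chain of Fdxr and Fdx1, is named here after its values were seen. Its brighter probe set read 10.05 and 10.12 in V1aKO glands and 8.67 and 10.87 in WT glands, a difference of 0.31 (SE 0.82). The plain one read 9.20 and 9.29 in V1aKO glands and 10.37 and 10.24 in WT glands, a difference of -1.06 (SE 0.16, unadjusted p = 0.00377, limma adjusted p = 0.763). The direction of Nnt therefore depended on the probe set, but without WT array 1 both differences were below 0, with -0.79 on the brighter one.

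Cholesterol delivery to mitochondria was split. Of 15 tested genes 7 had a higher and 8 a lower mean in V1aKO glands, with a median of -0.00014 (0.018 without WT array 1) and 1 gene at an unadjusted p under 0.05. That gene was Npc1, which exports cholesterol from lysosomes, at 0.84 (SE 0.19), with 8.70 and 8.49 in V1aKO glands against 7.85 and 7.66 in WT glands. Abca1, a cholesterol exporter, differed by 0.71 (SE 0.26). Ywhag, a 14-3-3 protein, read 12.37 and 12.51 in V1aKO glands, against 10.38 and 12.39 in WT glands. Its difference of 1.06 (SE 0.75) rested on WT array 1, was 0.056 without it, and was 0.21 on the gene's other tested probe set. The mitochondrial proteins Tspo and Vdac1 and the protease Lonp1, which degrades imported Star, differed by 0.017 (Tspo), -0.024 (Vdac1) and 0.027 (Lonp1), and without WT array 1 by -0.017 (Tspo), -0.0019 (Vdac1) and 0.16 (Lonp1).

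Regulators of the route had a median of -0.11 (-0.061 without WT array 1) over 15 tested genes, 5 higher and 10 lower in V1aKO glands. Without WT array 1, 9 were lower. Of all genes tested, 56.0% had a lower mean, or 42.9% without that array. By the brightest probe set of each gene, 1 regulator had an unadjusted p under 0.05, against 5.06% of all genes tested. It was Cited2, a coactivator of adrenal development, at -0.73 (SE 0.23). Prkaca, counted as higher, went the other way on its second probe set, at -1.03 (SE 0.27, limma unadjusted p = 0.0208, adjusted p = 0.794). The count at that level therefore depended on the probe set. Cdkn1c, a cell cycle inhibitor, differed by -0.81 (SE 0.30), or -0.45 without WT array 1, and Prkar1a, the regulatory subunit of protein kinase A, by 0.42 (SE 0.16). Nr5a1 read 9.89 and 10.14 in V1aKO glands, against 10.51 and 10.26 in WT glands, a difference of -0.37 (SE 0.20, limma adjusted p = 0.794) without overlap, or -0.24 without WT array 1. All 5 cortex markers had a lower mean in V1aKO glands, with a median of -0.21. They are not a separate group: Nr5a1, Mrap, Nr0b1 and Mc2r are counted among the regulators and Scarb1 under cholesterol delivery. On both V1aKO arrays 4 of them were lower, as were 20.5% of all genes tested. Among tested probe sets at levels from 10 to 12, where Nr5a1 and Mrap lay, that share was 27.7%. From 13 to 14, where Scarb1 lay, it was 35.5%, and under 6, where Nr0b1 lay, 15.6%. With 5 markers, an excess over these shares cannot be told. The 4 lower markers include Nr0b1, at -0.11 (SE 0.16), or -0.061 without WT array 1, and close to the filter of 4. A further list of cytochromes and sterol and heme enzymes, most of them served by Por and Cyp27a1 by ferredoxin, had 8 of 11 tested genes with a lower mean and a median of -0.31. With WT array 1 left out it was 6 of 11, with a median of -0.080. The shares over all genes tested were 56.0% and, without that array, 42.9%. The 2 at an unadjusted p under 0.05 were the cholesterol synthesis enzymes Sqle, at -1.26 (SE 0.34), and Cyp51, which read 6.91 and 6.80 in V1aKO glands and 7.71 and 8.99 in WT glands. Dhcr7, a late enzyme of cholesterol synthesis, differed by -0.46 (SE 0.24), or -0.71 without WT array 1.

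**Figure D5:**
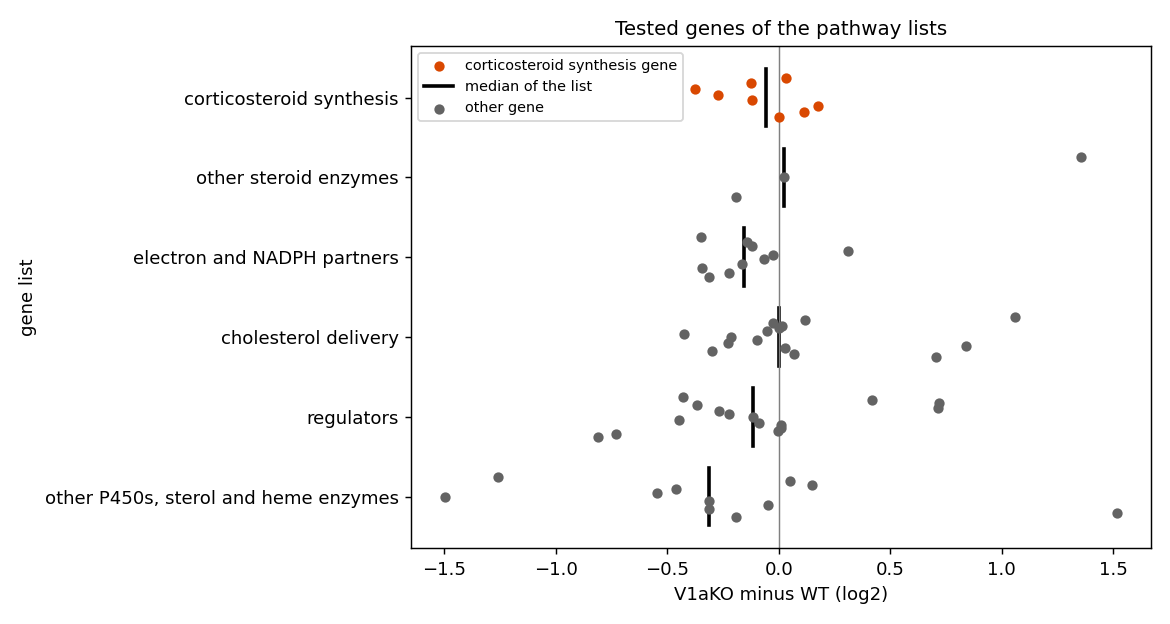
V1aKO minus WT in log2 units for each tested gene of the corticosteroid route (orange) and of 5 further lists (grey), with the median of each list as a black bar. The medians run from -0.31 for cytochromes and sterol and heme enzymes to 0.023 for other steroid enzymes, and the route itself lies between -0.38 and 0.18. Without WT array 1 the same lists had medians of -0.080 and 0.10. The lowest median was then -0.098, for the electron and NADPH partners.

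The genes outside the list with levels nearest to those of Star over the 4 arrays, by Euclidean distance of log2 levels, were Eef1a1 (0.240), Tpt1 (0.246), Chgb (0.345), Tsc22d1 (0.372) and Hspa8 (0.411). Those nearest to Cyp11b2 were Rgcc (0.329), Tmx4 (0.338), Atp2a2 (0.345), Rbmxl1 (0.371) and Hand2 (0.377). With 4 arrays, such a likeness describes a place on the scale and little more.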

How the data were processed

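Adrenal RNA of 2 V1aKO and 2 WT samples was read on Affymetrix Mouse Genome 430 2.0 arrays, 1 array per sample, from mRNA with an RNA integrity number of 8.0 to 9.0, per the labels' protocols. The deposited log2 values are the authors' GCRMA output for each probe set (Bioconductor 3.14, per the labels' protocols). GCRMA corrects background by probe sequence, so dim probe sets gather at a floor, and it scales arrays to each other. The log2 scale was read from the values. No further normalization was applied. Depth has no counterpart here: the number of arrays limits the precision.

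The 64 control probe sets were left out, and probe sets reaching 4 log2 units on at least 2 of 4 arrays were tested by limma 3.58.1 in R 4.3.3 (genotype only, eBayes without trend, Benjamini-Hochberg over all 17228, threshold 0.05, with 2 residual and 1.73 prior degrees of freedom). SE and intervals are limma's moderated ones. The brightest tested probe set stood for a gene. Genes were named from the platform annotation, which gave 1 gene to 34945 of 45037 probe sets, several to 932 and no gene to 9160. Of the first, 34741 matched GRCm38.p6 by gene ID. The scripts were tested on simulated data.

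Named were all listed genes, the 3 genes with the smallest p of each further list, the 5 nearest in level to Star and to Cyp11b2, and markers. Named outside this rule, after their values were seen, were Nnt, Cyp17a1, Akr1c18, Hsd3b2, Tspo, Vdac1, Lonp1, Nr5a1, Prkaca and Cyp20a1. The listed genes and all lists were chosen with earlier results of these data known. Alternatives changed the filter (none, or 6 log2 units), the scaling (quantile, or centred medians), the variance model (trend and robust), the probe sets (plain ones alone, a gene's mean, its second brightest), the design (replicate number as a block) and the arrays (each left out once).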

Additional observations from a re-analysis of the deposited data

How the results depend on the processing

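None of the 8 genes passed an adjusted p of 0.05 in limma under any alternative run. Hsd3b1, Fdx1 and the median over the 8 genes, which was -0.058 as reported and closest to 0 after quantile normalization (-0.0035), kept their sign under each. Single arrays moved that median to -0.0054 (without WT array 1), -0.032 (without V1aKO array 2), -0.097 (without WT array 2) and -0.13 (without V1aKO array 1). Leaving out each array in turn gave -0.022 (without WT array 1) to 0.090 for Star, -0.046 (without WT array 2) to 0.051 for Cyp11a1, -0.27 to 0.029 (without WT array 1) for Cyp21a1, -0.032 (without WT array 1) to 0.26 for Cyp11b1, -0.11 (without V1aKO array 1) to 0.47 for Cyp11b2 and -0.76 to 0.011 (without WT array 1) for Hsd11b1. The sign also turned for Cyp11a1 without V1aKO array 1 (-0.022), with its probe sets averaged (-0.057) and with its second brightest (-0.12), and for Star with its probe sets averaged (-0.058). The cause was not tested. Of all probe sets, 2 passed the adjusted threshold with a filter at 6 log2 units, with quantile normalization, with centred medians and with plain probe sets alone, against 0 as reported, and leaving out each array gave 0 throughout. The stricter unadjusted rule was met by 144, by 78 when no filter was used, and by 25 (without V1aKO array 1), 30 (without V1aKO array 2), 183 (without WT array 1) and 1497 (without WT array 2). With the replicate number as a block the counts were 0 and 126, and no gene of the list changed its call. Deviations of same-numbered arrays correlated at 0.154, and the labels tie these numbers to no shared animal or day. A lone array left in a genotype was taken to vary as the remaining pair does. Scanner intensities were not analysed here, and no limit from signal over background is given.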

Other observations

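Several genes around the route had 1 probe set on which WT array 1 stood far below the other arrays, beside another on which it did not. Such low readings occurred on plain probe sets and, at a higher rate, on those with an x in the suffix of the name. Hsd17b4 read 9.99 and 9.96 in V1aKO glands and 7.53 and 9.70 in WT glands on the probe set with an x. On the plain one it read 8.95 and 9.11 in V1aKO glands and 9.25 and 8.88 in WT glands. Cyp20a1 read 10.21 and 10.17 in V1aKO glands and 7.51 and 9.83 in WT glands on its brightest probe set, a plain one. Prkaca differed by 0.72 on the probe set with an x (0.24 without WT array 1). On the other it differed by -1.03 (-0.77 without that array), and both V1aKO arrays were lower. WT array 1 was compared with the mean of the other 3 arrays over all tested probe sets. It lay at least 1 log2 unit below that mean on 18.6% of 1307 probe sets with an x and on 7.28% of 11738 plain ones. With an s in the suffix it was 12.7% of 1406, and with an a 8.97% of 2777. The same share for the other 3 arrays was between 0.536% and 0.918% of probe sets with an x and between 0.929% and 1.55% of plain ones. All 12 tested probe sets of the corticosteroid route are plain.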
